A study of Mus musculus with 12 samples.

Results

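Apobec2, Vegfc and Cables1 are 3 of the 37991 genes measured in bone marrow natural killer (NK) cells lacking Id2, Tcf7 or both. The genes were chosen by the difference of their RNA values between the double knockout (DKO) and the control (Ctrl), so that difference is their selection and not a finding. The question taken up here is whether each gene follows the Tcf7 label or the Id2 label in the single knockouts. NK cells are innate lymphocytes that kill virus-infected and tumour cells. They were sorted as NK1.1+ CD49b+ from C57Bl/6 mice, and RNA was sequenced from 4 groups of 3 libraries. Id2KO carried Ncr1Cre and Id2F/F, Tcf1KO carried Ncr1Cre and Tcf7F/F, and DKO carried Ncr1Cre, Id2F/F and Tcf7F/F. Ctrl was Id2F/F or Id2F/F Tcf7F/F without Cre, so every comparison with Ctrl also holds the presence of Cre. Ncr1Cre is driven from the gene of the activating receptor NKp46, and deletion is therefore limited to cells that have switched that gene on. The age of the mice is not given in the labels. The samples are called independent without saying whether each is a separate animal, so p-values cover only the variation among these samples.

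Id2 is a helix-loop-helix protein without a DNA-binding region of its own. It pairs with E proteins and keeps them off their DNA sites, called E-boxes, and NK cells need it to be maintained. Tcf7 encodes TCF-1, a high mobility group factor that binds DNA at TCF sites and acts early in T cell, innate lymphoid and NK cell development. Apobec2 belongs to the APOBEC family of zinc-dependent deaminase-like proteins and is best known from skeletal and heart muscle. Vegfc encodes VEGF-C, a secreted growth factor that drives lymphatic vessel growth through the receptor VEGFR-3 (gene Flt4). Cables1 encodes an adaptor that links the kinases Cdk5 and Abl1 and acts as a brake on the cell cycle.

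The DNA before the start of 2 of the genes, Vegfc and Apobec2, is shown because Id2 acts on factors that bind E-boxes and Tcf7 encodes a factor that binds TCF sites. No sequence or motif count is given for Cables1. The sequences are RefSeq's on GRCm38.p6, 5′ to 3′ on the gene's strand, with the 250 bases before RefSeq's start searched on both strands for the E-box (CANNTG) and for the TCF cores CTTTGA and CTTTGT. The searched window of Vegfc, chr8:54077282-54077531 on the plus strand, held none of these motifs and had a GC content of 71.6%:
Vegfc: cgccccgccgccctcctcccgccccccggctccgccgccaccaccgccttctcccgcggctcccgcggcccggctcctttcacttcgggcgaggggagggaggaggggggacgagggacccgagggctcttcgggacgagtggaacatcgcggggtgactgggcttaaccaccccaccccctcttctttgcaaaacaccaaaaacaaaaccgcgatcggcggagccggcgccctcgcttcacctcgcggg
The window of Apobec2 (minus strand, GC content 55.2%) held 3 E-boxes, in capitals below, and no TCF core. Each is shown in 30 bases:
Apobec2, chr17:48432892-48432921: cccagccctcccCACCTGccagcttcctgt
Apobec2, chr17:48432848-48432877: atagggggaataCACATGgccagagtttcc
Apobec2, chr17:48432734-48432763: ttataaagcctgCAGCTGagttgtggggag
The E-boxes begin 181, 137 and 23 bases before RefSeq's start. They lie within the first exon of a longer GENCODE transcript that starts further upstream. Among the 32851 promoters in the RefSeq table, 66.2% held an E-box and 27.6% held either TCF core in a window of this length. A match is a string of letters and not a measured binding site, and no match says only that these letters are not in this window.

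The sorted cells carried RNA of NK cell markers in all libraries, although not at equal levels in the groups. Klrb1c, the gene of NK1.1, lay between 52.5 and 85.5 FPKM (sequenced fragments relative to gene length and library depth), Itga2, the gene of CD49b, between 23.4 and 52.3, and Ncr1 between 60.3 and 204. Ncr1 averaged 192 FPKM for Ctrl, 124 for Id2KO, 64.8 for Tcf1KO and 78.1 for DKO. Of 10 listed NK markers, 5 had no overlap between Id2KO and Tcf1KO, where 18.1% of all tested genes had none. Ncr1, Eomes and Il2rb were higher in Id2KO, and Tbx21 and Gzma were lower. None had a limma adjusted p under 0.05 in that comparison. Recovered reads ranged from 13975523 in Ctrl replicate 2 to 20208160 in Tcf1KO replicate 3. Mean Id2 RNA was 152 FPKM for Ctrl, 18.0 for Id2KO, 114 for Tcf1KO and 42.3 for DKO, with each Id2KO and DKO library below every library of the other groups. Tcf7 RNA averaged 40.9, 84.8, 35.0 and 62.4 FPKM in the same order. Its level in Tcf1KO differed little from Ctrl (log2 difference -0.22, limma adjusted p = 0.999), and the gene total therefore does not check the Tcf7 deletion. Every DKO library (53.9 to 73.3 FPKM) had more Tcf7 RNA than any Ctrl library (37.7 to 46.5). For the Tcf7 part of Tcf1KO and DKO, the labels alone carry the directions given. Id2 RNA lay between 36.8 and 48.8 FPKM in DKO and between 17.1 and 19.2 in Id2KO, so it was reduced less in DKO.

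Apobec2 (ENSMUSG00000040694, chromosome 17, 48419231 to 48432930, minus strand, GRCm38) was near 0 where the labels give no Tcf7 deletion and between 1 and 3 FPKM where they do. It stood at 0.0507, 0.294 and 0 FPKM across Ctrl and at 0.289, 0.116 and 0.377 in Id2KO. It stood at 1.75, 1.94 and 1.54 in Tcf1KO and at 2.36, 2.65 and 2.30 in DKO. All 6 libraries of Tcf1KO and DKO were higher than all 6 of Ctrl and Id2KO, which overlapped each other. Ctrl averaged 0.115 ± 0.157 and Id2KO 0.261 ± 0.133 FPKM, against 1.75 ± 0.20 for Tcf1KO and 2.44 ± 0.188 for DKO (SD, n = 3). These levels rest on few reads, with 1, 5 and 0 for Ctrl and 5, 2 and 8 for Id2KO, against 30, 44 and 38 for Tcf1KO and 43, 51 and 40 for DKO. The library at 0 could hold up to 3 reads, or 0.151 FPKM, by counting error alone.

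Vegfc (ENSMUSG00000031520, chromosome 8, 54077606 to 54187096, plus strand) had the opposite pattern. It stood at 6.15, 4.80 and 8.32 FPKM across Ctrl and at 8.79, 3.57 and 3.55 in Id2KO, so these groups overlapped. It stood at 0.164, 0.206 and 1.93 in Tcf1KO and at 0.0256, 0.146 and 0.0269 in DKO. All 6 libraries of Ctrl and Id2KO were above all 6 of Tcf1KO and DKO. The third Tcf1KO library stood apart from the other Tcf1KO libraries, with 102 reads against 6 and 10. DKO was down to 1, 6 and 1 reads, while Ctrl had 260, 175 and 354. Ctrl averaged 6.42 ± 1.77 and Id2KO 5.30 ± 3.02 FPKM, against 0.768 ± 1.01 for Tcf1KO and 0.0660 ± 0.0690 for DKO (SD, n = 3).

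**Figure D1:**
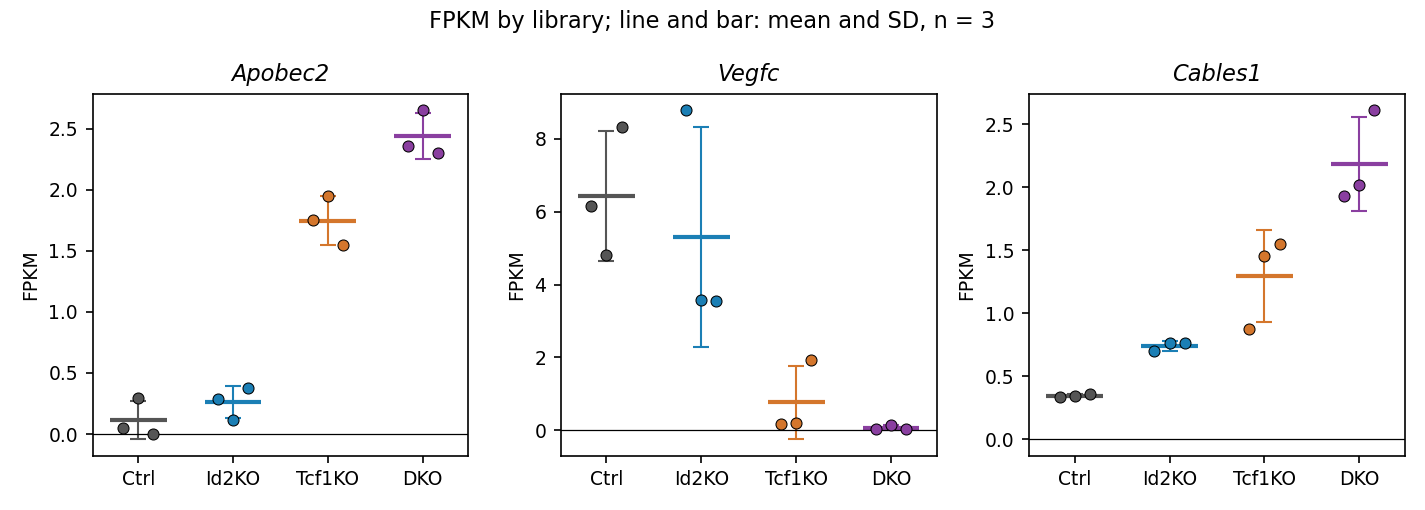
FPKM of Apobec2, Vegfc and Cables1 in each of the 12 libraries (points), by group, with the mean and SD of 3 libraries as line and bar. Apobec2 is at or above 1.54 in Tcf1KO and DKO and at or below 0.377 elsewhere, Vegfc is at or below 1.93 in Tcf1KO and DKO and at or above 3.55 elsewhere, and the 4 groups of Cables1 lie one above the other without overlap.

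Cables1 (ENSMUSG00000040957, chromosome 18, 11839220 to 11945630, plus strand) had a different mean in each of the 4 groups. It stood at 0.334, 0.344 and 0.359 FPKM across Ctrl and at 0.697, 0.762 and 0.760 in Id2KO. It stood at 0.876, 1.46 and 1.55 in Tcf1KO and at 1.93, 2.02 and 2.61 in DKO. No 2 groups overlapped, in the order Ctrl, Id2KO, Tcf1KO and DKO. No difference between neighbouring groups had a limma adjusted p under 0.05 (0.603, 0.492 and 0.687 in that order). Ctrl had 36, 32 and 39 reads and Id2KO 66, 72 and 88, while Tcf1KO had 82, 180 and 208 and DKO 192, 212 and 248. Group means were 0.346 ± 0.0128, 0.740 ± 0.0368, 1.29 ± 0.363 and 2.19 ± 0.373 FPKM in that order (SD, n = 3). Cables1 was the 1 gene of the 12384 tested (0.00807%) whose groups kept this order or its reverse with no overlap. The order counted is the one Cables1 itself shows, with the Ctrl and DKO ends set by the selection. Other orders of the groups were not counted, so this share is no measure of how unusual Cables1 is. The values imply a length of 6657 bases for Cables1 against 3839 bases of merged GENCODE M21 exons, so its level relative to other genes depends on the gene length used. Its ratios of FPKM between groups do not depend on that length. Its differences on the log2(FPKM + 1) scale used below do, because 1 is added to each value.

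The difference of means between Id2KO and Tcf1KO contains none of the 6 libraries that chose the genes, but its error in the main fit is estimated from all 12 libraries, Ctrl and DKO included. It was fitted with limma on log2(FPKM + 1), a scale that understates differences of low genes, over the 12384 genes that reached 1 FPKM in at least 3 libraries. All 3 genes passed that filter. Apobec2 and Cables1 passed it only through Tcf1KO and DKO libraries, and Vegfc through Ctrl, Id2KO and 1 Tcf1KO library. Among all tested genes, 30 (0.242%) passed an adjusted p of 0.05, 18 higher and 12 lower in Id2KO. Scaling the libraries to equal medians gave 46 calls, 33 higher and 13 lower, and leaving out each library in turn gave 11 to 73, the lowest without Id2KO replicate 2 and the highest without Id2KO replicate 3. None of the 3 genes passed, although the libraries of Id2KO and Tcf1KO did not overlap in any of them, which held for 18.1% of tested genes.

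Apobec2 was 6.70-fold higher in mean FPKM in Tcf1KO than in Id2KO. Id2KO minus Tcf1KO was -1.13 ± 0.20 on the log2 scale (SE; 95% interval -1.57 to -0.68), with a limma adjusted p of 0.0574. Fitted on the 6 libraries of these groups alone, the adjusted p was 0.190 for Apobec2, 0.253 for Vegfc and 0.510 for Cables1. Apobec2 passed under 3 of 23 other settings, with adjusted p between 0.0163 and 0.221. Vegfc was 6.90-fold higher in Id2KO than in Tcf1KO, a log2 difference of 1.87 ± 0.40 (SE; 95% interval 1.0 to 2.75) with a limma adjusted p of 0.0911. Without the third Tcf1KO library the ratio was 28.7 and the limma adjusted p was 0.0419. The adjusted p of Vegfc lay between 0.0216 and 0.296 over 24 other settings. Cables1 was 1.75-fold higher in Tcf1KO, with a log2 difference of -0.39 ± 0.20 (SE; 95% interval -0.82 to 0.052) and a limma adjusted p of 0.492, and it passed under no other setting.

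**Figure D2:**
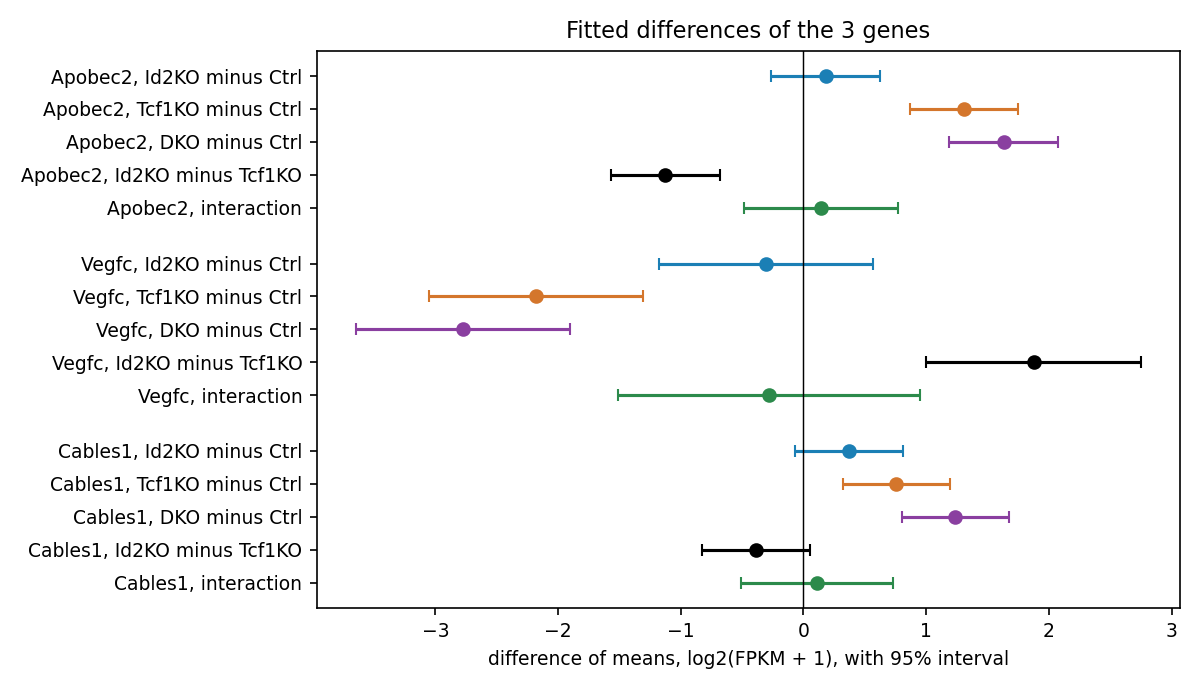
Fitted differences of group means on the log2(FPKM + 1) scale (x axis), with 95% intervals, for 5 contrasts of each gene. Id2KO minus Tcf1KO (black) is a difference of means that contains no library used in the selection, with an interval whose error comes from all 12 libraries; it spans -1.57 to -0.68 for Apobec2, 1.0 to 2.75 for Vegfc and -0.82 to 0.052 for Cables1.

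Markers of other marrow cells are given beside this comparison. The summed FPKM of 10 myeloid and neutrophil markers ran from 60.1 to 1017 in Id2KO and from 1147 to 4163 in Tcf1KO, and 8 of the 10 did not overlap, where 18.1% of all tested genes did not. Basophil and mast cell markers (8 genes) summed to between 15.6 and 94.7 in Id2KO and between 51.1 and 752 in Tcf1KO. The 9 erythroid markers summed to between 85.7 and 1788 in Id2KO and between 1258 and 3237 in Tcf1KO, and the 5 megakaryocyte markers to between 0.757 and 29.6 and between 10.1 and 108. Of these lists 1 of 9 erythroid, 1 of 8 basophil and mast cell and 1 of 5 megakaryocyte markers had no overlap, and no gene of the 4 lists was called. The 6 B and plasma cell markers ran the other way, with sums between 350.5 and 411 in Id2KO and between 154 and 203 in Tcf1KO. Ighm, the immunoglobulin heavy chain, was called among them (Id2KO minus Tcf1KO 1.18, limma adjusted p = 0.0223). Within Tcf1KO, the third library, which had the highest Vegfc, had the lowest myeloid, basophil, erythroid and megakaryocyte sums. DKO myeloid sums ran from 320.1 to 777 and Ctrl sums from 876 to 3573. The part of these cells in the differences was not tested. In bulk RNA, fewer cells of a type and less RNA per cell cannot be told apart.

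Markers of the tissues in which Apobec2 and Vegfc are best known were also measured. Of 6 muscle markers, Myh1 and Myog were at 0 in all 12 libraries, and the sum of the 6 reached 2.39 FPKM in Ctrl and at most 0.543 in any other group. The muscle sum lay between 0.184 and 0.278 in Id2KO and between 0.0140 and 0.299 in Tcf1KO. The 9 endothelial and stromal markers summed to between 3.51 and 10.03 FPKM for Ctrl, 3.90 and 6.00 for Id2KO, 3.80 and 14.6 for Tcf1KO, and 3.4 and 7.47 for DKO. Only Pecam1 and Cxcl12 of the 9 were high enough to test. Pecam1 alone averaged 3.91 FPKM for Ctrl, 4.31 for Id2KO, 3.44 for Tcf1KO and 3.57 for DKO. The sum of 14.6 was that of Tcf1KO replicate 1, where Col1a1 stood at 4.20 FPKM. The part of muscle, endothelial and stromal cells in the differences was not tested.

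The difference from Ctrl shares its control libraries with the selection and is given as a description. Id2KO minus Ctrl was 0.18 for Apobec2 (95% interval -0.26 to 0.62), -0.31 for Vegfc (-1.18 to 0.56) and 0.37 for Cables1 (-0.067 to 0.81) on the log2 scale. The limma adjusted p values were 0.832, 0.864 and 0.603, where 22 genes (0.178%) were called, 13 without Id2KO replicate 1 and 14 without Id2KO replicate 2. Only Cables1 had no overlap between Id2KO and Ctrl, as did 13.9% of tested genes, and its mean FPKM was 2.14-fold that of Ctrl. Tcf1KO minus Ctrl was 1.31 for Apobec2 (95% interval 0.86 to 1.75), -2.18 for Vegfc (-3.06 to -1.31) and 0.76 for Cables1 (0.32 to 1.19). The limma adjusted p values were 0.143, 0.195 and 0.516, in a comparison where limma called 0 genes (0%) of the 12384; 594 were under 0.05 before adjustment, and a voom fit called 2. Array weights called 7 and gave Apobec2 an adjusted p of 0.0397, and 3 genes were called without Id2KO replicate 3. All 3 genes had no overlap between Tcf1KO and Ctrl, as did 10.7% of tested genes.

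DKO minus Ctrl, the contrast that chose the genes, was 1.63 for Apobec2, -2.77 for Vegfc and 1.24 for Cables1, with limma adjusted p of 0.0253, 0.0327 and 0.0468 and 18 genes called (0.145%). That count was 1 without Ctrl replicate 1, Ctrl replicate 2 or DKO replicate 3, and 3 without Ctrl replicate 3 or Tcf1KO replicate 2. It was 5, 11 and 10 without DKO replicate 1, DKO replicate 2 and Tcf1KO replicate 3, 12 without Id2KO replicate 1 or Tcf1KO replicate 1, and 27 without Id2KO replicate 3. It was 0 by limma without the 3 libraries of lowest weight (1046 genes under 0.05 before adjustment), a setting chosen after seeing the data. The genes took places 3, 9 and 17 by p. Id3 was just inside the threshold at 0.0468, and Gm25131, Itga1, Plscr4 and Klri2 just outside at 0.0504. With each of the 12 libraries left out in turn, the limma adjusted p of Cables1 was never below 0.05. Apobec2 and Vegfc lost the call without any 1 Ctrl library, any 1 DKO library or Tcf1KO replicate 2, at adjusted p up to 0.095 and 0.136. DKO libraries did not overlap Ctrl for any of the 3 genes (13.5% of tested genes) or Id2KO (14.7%).

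The genes were selected for DKO standing far from Ctrl, which favours DKO lying beyond Tcf1KO, so the next values are a description. DKO and Tcf1KO libraries did not overlap in any of the 3 genes, with DKO further from Ctrl; 12.6% of tested genes had no overlap between these groups, and nothing is read from that share. DKO minus Tcf1KO was 0.32 for Apobec2 (95% interval -0.12 to 0.77), -0.59 for Vegfc (-1.46 to 0.28) and 0.48 for Cables1 (0.044 to 0.92). Their limma adjusted p values were 0.848, 0.868 and 0.687. Whether Id2 loss acts differently with and without Tcf7 is asked by the interaction: the DKO minus Tcf1KO difference, less the Id2KO minus Ctrl difference. It contains the DKO and Ctrl libraries of the selection, although as their sum where the selection used their difference, and it shares their spread; its values too are given as a description. It was 0.14 ± 0.28 for Apobec2 (95% interval -0.48 to 0.77), -0.28 ± 0.56 for Vegfc (-1.51 to 0.95) and 0.11 ± 0.28 for Cables1 (-0.51 to 0.73), each with its SE. The limma adjusted p values were 0.984, 0.984 and 0.986. Limma called 0 genes (0%) for the interaction, with 735 under 0.05 before adjustment, and a voom fit called 0. The intervals leave room for differences of either sign. Id2 RNA was reduced less in DKO than in Id2KO, and the interaction takes no account of that.

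By label, all 3 genes separated the 6 libraries of Tcf1KO and DKO from the 6 of Ctrl and Id2KO, and none separated by the Id2 label. Of all tested genes, 109 (0.88%) were separated by the Tcf7 label, 65 higher and 44 lower, and 111 (0.896%) by the Id2 label. The selection placed DKO and Ctrl apart beforehand, so these shares are no measure of how unusual the 3 genes are. Among the 18 genes called in DKO against Ctrl, a set whose size changes with single libraries, 7 were separated by the Tcf7 label (Adamts14, Apobec2, Cables1, Klra4, Plxnc1, Tcrg-V3 and Vegfc). A further 6 were separated by the Id2 label (Hist2h3c2, Id2, Id3, Klrg1, Nsg2 and S1pr5) and 5 by neither. Cables1 differs from the other two in that its Id2KO and Ctrl libraries do not overlap either.

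Of 9 listed deaminase genes other than Apobec2, 5 were tested, none was called between Id2KO and Tcf1KO, and the libraries of these groups overlapped in each. Their median difference was 0.37, against 0.00052 over all tested genes. Apobec3, which restricts retroviruses, averaged 10.9 FPKM for Ctrl, 13.4 for Id2KO, 11.8 for Tcf1KO and 12.7 for DKO (Id2KO minus Tcf1KO 0.16, limma adjusted p = 0.816). Apobec1, the editing enzyme of apolipoprotein B RNA, averaged 6.31, 6.75, 4.97 and 4.12 in the same order (0.37, limma adjusted p = 0.787).

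Of 17 genes for VEGF ligands, receptors and processing, 4 were tested (Vegfb, Nrp1, Adamts14 and Hif1a), with a median Id2KO minus Tcf1KO of 0.23 and none called. Flt4, Kdr and Flt1, the receptors, and Ccbe1 and Adamts3, which process VEGF-C, were too low to test, as was Vegfa (0.444, 0.348, 0.219 and 0.284 FPKM in Ctrl, Id2KO, Tcf1KO and DKO). Adamts14, a procollagen-processing protease closely related to Adamts3, stood at 35.0, 27.2 and 39.6 FPKM across Ctrl and at 20.9, 25.4 and 15.8 in Id2KO. It stood at 13.5, 12.5 and 14.4 in Tcf1KO and at 10.5, 15.6 and 10.3 in DKO. Like Vegfc it was lower in every Tcf1KO and DKO library than in any other, but unlike Vegfc its Id2KO libraries were all below Ctrl. Id2KO minus Tcf1KO was 0.56 ± 0.22 (SE, limma adjusted p = 0.340). Adamts14 is itself among the 18 genes called in DKO against Ctrl (-1.42, limma adjusted p = 0.0416). Vegfb, the ligand of VEGFR-1, averaged 5.6, 7.0, 5.30 and 4.62 FPKM (0.31, limma adjusted p = 0.813), and the coreceptor Nrp1 averaged 1.53, 1.76, 2.81 and 1.81 (-0.43, limma adjusted p = 0.650).

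**Figure D3:**
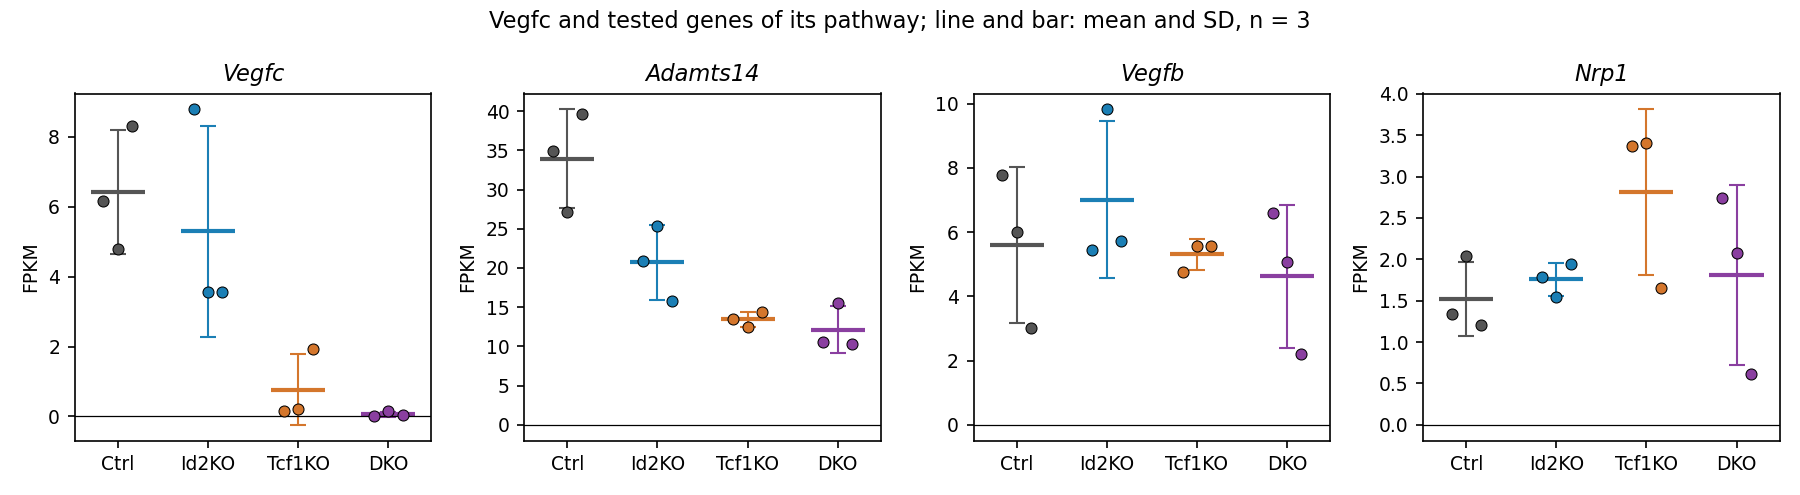
FPKM of Vegfc, Adamts14, Vegfb and Nrp1 in each library (points), by group, with mean and SD of 3 libraries. Vegfc and Adamts14 are lower in Tcf1KO and DKO than in the other groups without overlap, while the libraries of Vegfb and Nrp1 overlap between them.

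Of 18 listed partners of Cables1 and cell cycle genes, 14 were tested and none was called between Id2KO and Tcf1KO, with a median difference of -0.021. Cables2, its closest relative, averaged 4.44 FPKM for Ctrl, 4.74 for Id2KO, 3.81 for Tcf1KO and 4.69 for DKO (Id2KO minus Tcf1KO 0.25, limma adjusted p = 0.637). Cdk5, a kinase that Cables1 binds, averaged 5.28, 5.07, 5.0 and 5.26 (0.054, limma adjusted p = 0.976). Libraries of Id2KO and Tcf1KO did not overlap for Cdk2 (-0.48), the inhibitor Cdkn1b (-0.53), the cyclin Ccnb1 (-0.74) and Trp53 (0.49), with limma adjusted p between 0.171 and 0.595. These are 4 of 14 genes, where 18.1% of all tested genes had no overlap.

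The genes most like each member were ranked by Pearson's r over the 12 libraries on the log2 scale, given as a description because all share the same groups and libraries. For Apobec2 they were Cd22 (0.963), an inhibitory lectin best known from B cells; Cd3e (0.924), a chain of the CD3 complex; Sh3pxd2a (0.922), a podosome scaffold; and Ikzf2 (0.921), the factor Helios. Cd22 averaged 0.288 FPKM for Ctrl, 0.390 for Id2KO, 1.27 for Tcf1KO and 1.73 for DKO. Cd3e, at a far higher level, averaged 132, 138, 375 and 393 in the same order.

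For Vegfc the most similar genes were Klri2 (0.941), a lectin-like NK receptor; Eya1 (0.922), a transcriptional coactivator; Eomes (0.902), a T-box factor of NK cells; and Fmnl1 (0.894), a formin. Eomes averaged 47.3 FPKM for Ctrl, 39.8 for Id2KO, 26.6 for Tcf1KO and 25.7 for DKO, and Eya1 averaged 2.38, 2.36, 0.885 and 0.584.

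For Cables1 they were Apobec2 (0.906), Cd6 (0.898), the secreted factor Gdf11 (0.894) and Trbc2 (0.892), a T cell receptor constant region. Cd6 is a T cell surface receptor with scavenger receptor cysteine-rich domains. Gdf11 averaged 3.88, 5.70, 8.19 and 8.49 FPKM in Ctrl, Id2KO, Tcf1KO and DKO. Between the members, r was -0.947 for Apobec2 and Vegfc and -0.846 for Vegfc and Cables1. The sum of 8 T cell markers, which include Cd3e and Trbc2, ran from 969 to 1151 FPKM in Ctrl, from 1289 to 1748 in Id2KO, from 1401 to 1877 in Tcf1KO and from 1837 to 2246 in DKO, and its part in the pattern was not tested. Of the 8 markers, 3 had no overlap between Id2KO and Tcf1KO, where 18.1% of all tested genes had none. Cd3e and Trac were lower in Id2KO and Trbc1 was higher. Cd3e and Trac, 2 of the 8, were separated by the Tcf7 label, as were 0.88% of tested genes. Trac averaged 175, 221, 430 and 476 FPKM in Ctrl, Id2KO, Tcf1KO and DKO. Cd3d averaged 28.1, 77.4, 63.5 and 54.4, and Cd3g 31.9, 55.0, 61.7 and 73.2. Not all of these markers ran together. Cd8a, a coreceptor of cytotoxic T cells, averaged 2.78 FPKM for Ctrl, 3.36 for Id2KO, 11.7 for Tcf1KO and 11.2 for DKO, and Trbc1, another T cell receptor constant region, averaged 397, 648, 277 and 483 in the same order. Cd4, the coreceptor of helper T cells, averaged 2.49, 2.42, 3.38 and 3.03.

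**Figure D4:**
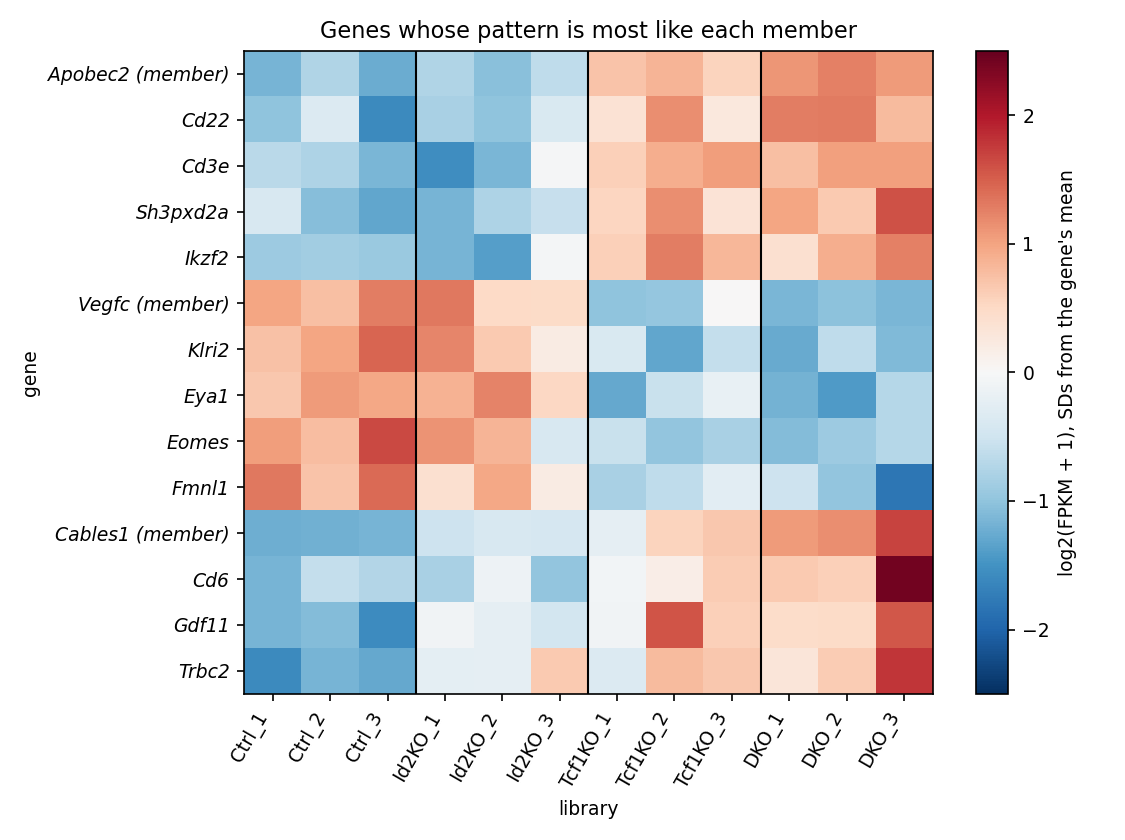
Colour gives log2(FPKM + 1) of each gene (rows) in each library (columns), in SDs from that gene's own mean, for the 3 genes and the genes most correlated with each. The Apobec2 rows are blue in Ctrl and red in Tcf1KO and DKO. The Vegfc rows are the reverse, except that the third Tcf1KO library is pale for Vegfc itself. The Cables1 rows go from blue in Ctrl to red in DKO with the first Tcf1KO library pale. The Id2KO columns are nearer to Ctrl, or between Ctrl and DKO in the Cables1 rows.

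Of the nearest protein-coding genes on each side, 6 in all, none was called between Id2KO and Tcf1KO. Oard1 lies 1965 bases from Apobec2, and its Id2KO minus Tcf1KO was 0.021 (limma adjusted p = 0.99). Tspo2, on the other side at 14977 bases, was lower in Id2KO without overlap (-0.91, limma adjusted p = 0.556), where 18.1% of all tested genes had no overlap. Its highest values were 4.15 FPKM in Ctrl replicate 2 and 1.96 in Tcf1KO replicate 2. Those libraries had the highest erythroid marker sums, 4532 and 3237, and the part of such cells was not tested. The neighbours of Vegfc are Spcs3 and Neil3, 333337 and 438541 bases away, and those of Cables1 are Tmem241 and Rbbp8, 18820 and 93999 bases away. The libraries of Id2KO and Tcf1KO overlapped in each of these 4.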

How the data were processed

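RNA was sequenced from 12 libraries of sorted NK cells, 3 in each of 4 groups taken from the sample labels. The authors deposited FPKM per gene, and per the submitters' processing notes Trimmomatic 0.33, TopHat2 2.1.0, HTSeq 0.6.1, edgeR and mm10 were used. Annotation came from GENCODE M21, which gave a symbol for 32919 of 37991 gene IDs. FPKM were analysed as log2(FPKM + 1) with limma 3.58.1 in R 4.3.3 (group means over 12 libraries, eBayes with a variance trend), with a two-sided moderated test and Benjamini-Hochberg adjustment over 12384 genes at 1 FPKM or more in at least 3 libraries. Whole reads were recovered from the FPKM steps for all 23707 genes above 0, within 0.001 reads widened to at most 0.05, and used only to state reads and for voom. Intervals are 95% and, like the floor of 3 reads, do not cover effects of amplification. With groups of 3 an exact permutation test cannot reach 0.05.

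The 3 genes and the gene lists (deaminases, VEGF pathway, Cables1 partners, cell type markers) were chosen with earlier results of these data known. Genes named are the 3 genes, Id2, Tcf7, list members that were called, had no overlap between Id2KO and Tcf1KO or are near relatives, the 4 most correlated tested genes of each (passing over Gm, Rik and receptor variable segments) and the nearest protein-coding neighbours; others were named after their values were seen. Settings varied were the pseudocount, filter, scaling, variance trend, library weights, replicate block, fitted groups, voom and each library left out. The fits were tested on simulated data.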

Additional observations from a re-analysis of the deposited data

How the results depend on the processing

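No setting reversed Id2KO minus Tcf1KO in any of the 3 genes. Its adjusted p for Apobec2 was 0.0483 with median scaling, 0.0215 without a variance trend and 0.0163 with array weights, and between 0.0547 and 0.221 with each library left out. For Vegfc it was 0.0216 with array weights, and between 0.0419 and 0.296 with each library left out, the lowest without Tcf1KO replicate 3. The log2 difference ran from -2.72 to -0.99 for Apobec2, from 1.51 to 3.41 for Vegfc and from -0.80 to -0.26 for Cables1. With the replicate block the adjusted p were 0.0915, 0.116 and 0.474, with 33 genes called, so the block changed no call of the 3 genes in this contrast; in DKO minus Ctrl, Cables1 went to 0.0687 and 19 genes were called. The replicate numbers were not treated as a pairing in the main fit. Correlations of deviations from group means lay between -0.14 and 0.272 for the 18 same-numbered pairs, with 6 over 0.1. They lay between -0.227 and 0.174 for the other 36. The 2 highest were same-numbered, Tcf1KO and DKO replicates 3 (0.272) and Ctrl and Tcf1KO replicates 3 (0.236). Id2KO and DKO replicates 1 had -0.14, and not every library correlated best with its own number. These ranges cannot decide whether same-numbered libraries belong together. The 30 genes called became 46 with median scaling, 180 with array weights, 8 with only the compared groups, 61 with voom, 108 without the 3 libraries of lowest weight (chosen after seeing the data), and 11 to 73 with each library left out (12 and 11 without Id2KO replicates 1 and 2, 73 without Id2KO replicate 3, 17 without Tcf1KO replicate 3). The interaction was far from the threshold throughout, but its sign turned: for Apobec2 with a pseudocount of 0.1 (0.983) and voom (0.962), for Cables1 with a pseudocount of 0.1 (0.985) and voom (0.983) and in the range of 0.970 to 0.999 with each library left out (without Tcf1KO replicate 1), and for Vegfc within 0.925 to 0.999 (without Id2KO replicate 1 or Tcf1KO replicate 3). Interaction calls were 1 without a variance trend and 0 to 1 with each library left out. The call in DKO minus Ctrl that chose the genes held in 13 of 22 settings for Apobec2, 13 of 23 for Vegfc and 4 of 22 for Cables1. A filter at FPKM 5 left no value for Apobec2 and Cables1. The low reads of Apobec2 in Ctrl and Id2KO and of Vegfc in DKO limit their precision.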
